A study of Drosophila melanogaster with 4 samples.

Results

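The 500 strongest narrow HP1c regions are the short stretches of the Drosophila melanogaster genome with the highest enrichment scores in a chromatin immunoprecipitation and sequencing (ChIP-seq) map of HP1c. They were taken from the authors' list for the replicate set, called the combined list here. Members are the 500 rows with the highest score among the 6482 enriched regions of at most 5000 bp, out of 6891 enriched regions in all. The other 5982 narrow regions serve as the comparison. The animals were whole Oregon-R larvae of the third instar, labelled Oregon-R-modENCODE with a wild type genotype. The series has 2 HP1c ChIP libraries and 2 input libraries of this strain and stage, and no other treatment or genotype. The antibody, labelled MO 462, was a rabbit polyclonal serum against part of HP1c. The labels give neither the sex of the larvae nor how many were pooled, and whole larvae mix many tissues. Nothing says that the replicates came from separate collections, so their spread may be technical.

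HP1c belongs to the heterochromatin protein 1 family, whose members carry a chromodomain that can bind methylated histone H3 and a chromoshadow domain that binds other proteins. HP1a, the founding member, is known from pericentric heterochromatin. HP1c is known mainly from euchromatin, where it is found with the zinc-finger proteins WOC and ROW at many active genes. Regions are given by position in FlyBase release 5, the build of the file headers. No sequence or gene annotation of that build was used here, so no gene, promoter or motif is named.

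The members were chosen by the authors' combined score, with width as a limit. Combined scores, and every value read from the replicates that made the combined list, are therefore descriptions with no test. The files also settle the scale of the score. In 6890 of the 6891 enriched rows of the combined list, the score equalled a constant of the list plus the log2 of a ratio of 2 whole numbers, within a relative tolerance of 1e-10. The same held for all 5586 scores of replicate 1 and all 5946 of replicate 2. Scores are thus on a log2 scale, on which 1 unit stands for a factor of 2. Which quantities form the ratio is not stated in the labels or headers.

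The members' combined scores ran from 2.70 to 4.33, with a median of 3.04 and quartiles of 2.84 and 3.31. The remaining narrow regions had a median of 0.62. The boundary fell in a continuous part of the list. The last 5 members, 3L:20801280-20803840, 3L:20340008-20342586, 3L:21018958-21022140, 2L:21308714-21312052 and X:12389760-12392306, all scored 2.70. The first 5 regions outside, 2R:9710986-9713354, 3L:22280216-22282820, 3L:8338206-8340926, X:18149442-18151958 and 3R:24160288-24164056, all scored 2.69. In replicate 1 the last 5 members scored between 2.31 and 2.47 and the first 5 outside between 2.43 and 2.89. In replicate 2 the ranges were 2.90 to 3.08 and 2.53 to 3.02. They overlap in both libraries, so the boundary separates no distinct class.

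The strongest members ranked high in both libraries, with ranks from 1 to 36 in replicate 1 and from 1 to 14 in replicate 2 for the first 10. The first, X:5222148-5225218, scored 4.10 in replicate 1 and 4.59 in replicate 2, where it ranked 2 and 1. In replicate 2 this stretch touched 2 separate regions, so the value is that of the larger overlap. The next, 3R:11054014-11056654, scored 4.10 and 4.26. The 2R region 2R:11014234-11018132 was the highest of replicate 1, with 4.13, and ranked 14 in replicate 2 with 4.22. The region 2L:7798694-7801508 ranked 2 in replicate 2 with 4.42 and 36 in replicate 1 with 3.56. The other 6 also scored higher in replicate 2. The member 2R:8766172-8768946 had 4.09 and 4.22, 2R:4996040-4999542 had 3.89 and 4.35, and 2R:2548438-2552386 had 3.66 and 4.41. The member 2L:18687658-18690768 had 3.79 and 4.32, 3R:9484992-9488136 had 3.81 and 4.23, and 3L:21720594-21723102 had 3.78 and 4.25. Across the first 10 members the scores were 3.56 to 4.13 in replicate 1 and 4.22 to 4.59 in replicate 2. The 2 ranges do not overlap, and replicate 2 was the higher in all 10.

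Replicate 2 scored higher across nearly the whole set. Among the 486 members found in both replicates, the matched region of replicate 1 scored 1.99 to 4.13 with a median of 2.81. That of replicate 2 scored 2.62 to 4.59 with a median of 3.29. The mean of the 2 medians was 3.05 ± 0.34 (SD, n = 2). Replicate 2 was the higher in 462 of 486 members (95.1%), and the difference within a member had a median of 0.51 with quartiles of 0.33 and 0.67. Taken in rank groups of 100, its median lay between 0.49 and 0.54. It was smaller in the remaining narrow regions found in both replicates, where the median difference was 0.23 and replicate 2 was the higher in 2900 of 4006 (72.4%). The constant within the scores is not unique, because a factor can pass between it and the ratio. Chosen among the most frequent scores of each list for the smallest median denominator, it was 1.15 in replicate 1 and 0.20 in replicate 2. These values are therefore not comparable between the lists. The part of the constant in the difference between replicates was not tested. The number of reads behind the scores is unknown for both libraries.

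**Figure D1:**
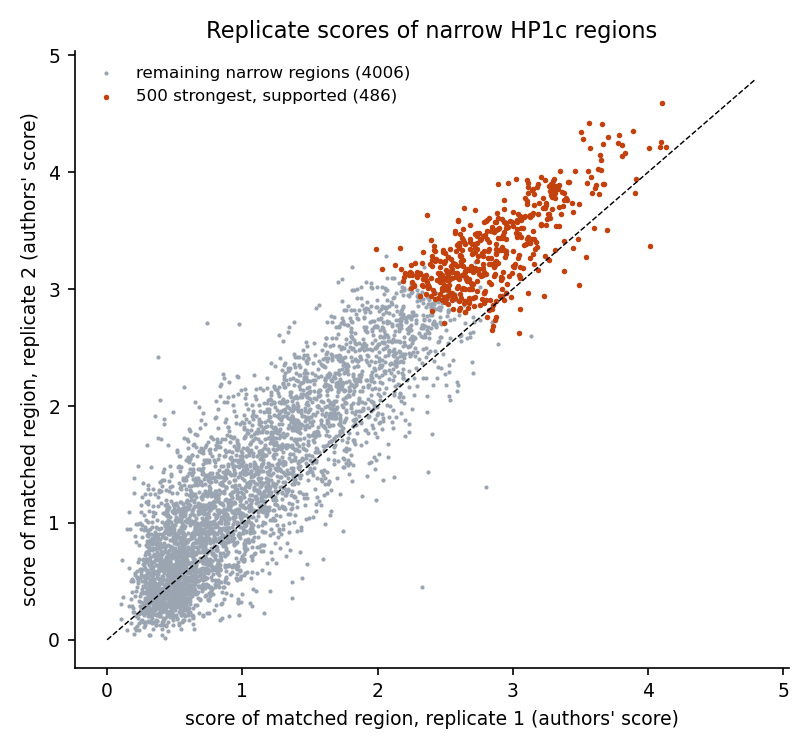
Each point is a narrow combined region found in both replicates, placed by the authors' score of the matched region in replicate 1 (x axis) and replicate 2 (y axis). The 486 members (orange) lie mostly above the dashed line of equal scores, 462 of them with the higher score in replicate 2, and the 4006 remaining regions are grey.

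Within the members the order of strength was shared only in part. Spearman's rho between the replicate scores was 0.67 and Pearson's r was 0.73 over the 486 members, as a description across regions of the same 2 libraries. Over the 4006 remaining supported regions rho was 0.84, across a wider span of scores. Ranked within the 486, a member moved by a median of 67 places between replicates, and 44 moved by more than 200. Of the 50 highest in each replicate, 32 were shared. The largest move was that of 3R:4555094-4558892, which was number 39 by its replicate 1 score of 3.49 and number 392 by its replicate 2 score of 3.04. Its replicate 1 region covered 66.5% of the member and its replicate 2 region 99.8%, so the scores belong to different stretches. The member X:16251918-16256656 followed, at 89 and 439 with scores of 3.23 and 2.94. Replicate 1 split it into 2 regions. In the other direction, 2R:14046852-14049310 rose from 450 with 2.37 to 101 with 3.63. The member 3L:6947508-6950522 moved from 144 with 3.05 to 486 with 2.62. There the replicate 2 region was 4582 bp wide, against 3015 bp for the member. The move of X:9539014-9541786, from 142 with 3.05 to 473 with 2.83, completed the 5 largest. Of these 5, 4 ranked higher in replicate 1, although replicate 2 had the higher score in most members. The combined score lay between both replicate scores in 454 of 486 members, below both in 27 and above both in 5.

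Nearly all members had a counterpart in each library. Of the 500, 486 (97.2%, exact Clopper-Pearson 95% interval 95.3 to 98.5) overlapped a region of both replicates by at least 1 bp, against 69.3% over all narrow regions and 67.0% (65.8 to 68.2) of the remaining ones. Both replicates went into the combined scores, so this is no independent replication. At the members' own widths the contrast was smaller. The 853 remaining regions with a width between the members' quartiles, 2568 to 3366 bp, overlapped both replicates in 95.7% (94.1 to 96.9), and their median score was 1.39. Support also did not peak at the top of the list. It was 98.2% for ranks 501 to 1000 and 97.8% for both of the next groups of 500, stayed at 92.6% for ranks 3001 to 3500, and fell to 54.8% for ranks 4001 to 4500 and 11.6% in the last group. The first 100 members were all found in both replicates, and the 14 exceptions lay below them.

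**Figure D2:**
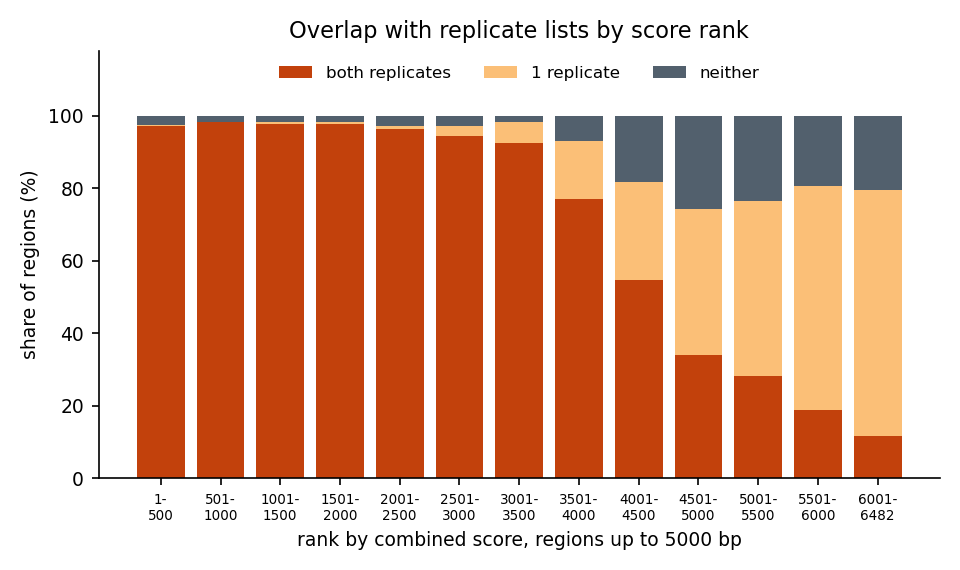
Bars show the share of narrow combined regions (y axis, percent) that overlap a region of both replicates, of 1 replicate or of neither, in groups of 500 by combined score (x axis, rank; the last group holds 482). The members, in the first bar, reach 97.2%, and the share for both replicates stays above 90% to rank 3500.

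Most of the 14 exceptions stood apart by width. Of them 13 (2.6% of the members, 95% interval 1.39 to 4.41) overlapped no region of either replicate, against 9.9% of all narrow regions. They include all 12 members narrower than 1301 bp, the smallest width in either replicate list. Lack of support was general at this width: of all 507 enriched regions below 1301 bp, none overlapped both replicates and 377 (74.4%) overlapped neither. These 12 measured 1001 to 1109 bp, and 8 had exactly the smallest width of the combined list, 1001 bp. The narrowest of the other members measured 2169 bp, so no member lay between. Of the 488 members at least 1301 bp wide, 486 were found in both replicates. With 500 members chosen among regions of at least that width, the share was 99.6%, against 72.9% of the remaining ones. Among remaining regions of the members' quartile widths, 95.7% were found in both. The 12 short members carried 4 scores between them. The score 2.76 occurred once among them, 2.98 in 4, 3.18 in 5 and 3.35 in 2. With the constant of the combined list chosen in the same way, 0.18, the 4 scores are those of ratios of exactly 6, 7, 8 and 9 to 1. Another constant would give other ratios. Among the other 488 members the smallest numerator in lowest terms was 27, the smallest denominator 4 and the median denominator 603. These are lowest terms and not read numbers. No supported member shared its exact score with another region, whereas 11 of the 12 short members did. The part of small numbers in the high scores of these 12 was not tested.

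The short members named by position were spread over arms and unplaced sequence. On 2L they were 2L:22572622-22573622 with 2.98, 2L:22788268-22789376 with 3.35 and 2L:23008862-23009870 with 3.35. On 2R they were 2R:267136-268136 with 2.76 and 2R:7305104-7306104 with 3.18, and on 3L there was 3L:7682280-7683280 with 3.18. The heterochromatin scaffolds held 2RHet:1147052-1148058 with 2.98, 3LHet:1542932-1543932 with 3.18 and XHet:109700-110700 with 2.98. The unplaced collection U held U:6286738-6287738 with 3.18, U:7870920-7871922 with 3.18 and U:8202724-8203724 with 2.98. For 10 of the 12 the nearest region of either replicate was more than 10 kb away, and the shortest distance was 4.23 kb, at U:8202724-8203724.

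The other pair of exceptions had widths like those of the rest. The region U:7291742-7295078, 3337 bp wide with a score of 2.83, overlapped neither list, and the nearest replicate 1 region was 4.81 kb away. The region 2L:23002384-23004604, with a combined score of 3.09, was found in replicate 2 alone, where it scored 3.15 and ranked 356. It lay 6.94 kb from the end of the 2L sequence. Of the 6 members within 500 kb of the centromeric end of an arm, 5 were exceptions, on 2L and 2R. Of all 76 narrow regions in such places, 40 (52.6%, 95% interval 40.8 to 64.2) were missing from at least 1 replicate. Outside the arms and chromosome 4, 7 of 10 members were exceptions, and 110 of all 164 narrow regions there (67.1%, 59.3 to 74.2) were missing likewise. Apart from 2L:23002384-23004604 and U:7291742-7295078, the exceptions counted by place are short members named above. Counts by place and by width therefore share these members.

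**Figure D3:**
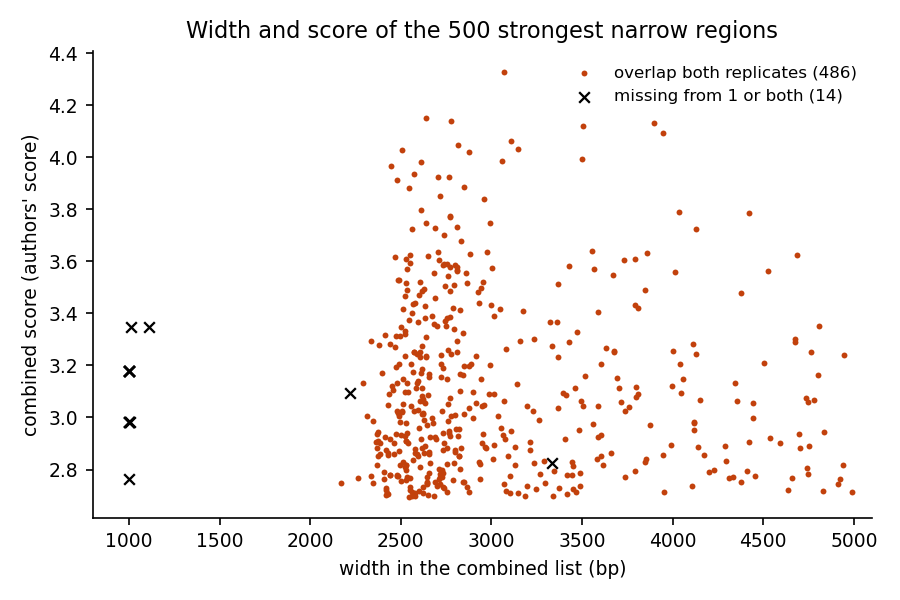
Each point is 1 of the 500 members, placed by its width in the combined list (x axis, bp) and its combined score (y axis, authors' score). Crosses mark the 14 members missing from 1 or both replicates, 12 of which sit at 1001 to 1109 bp, apart from the members at 2169 bp and above.

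The edges of the members were set at nearly the same bases in both libraries. Of the 486 supported members, 481 matched 1 region in each replicate and 5 were split in a replicate. The starts of the matched regions differed between replicates by a median of 49 bp and the ends by 46 bp. For the remaining supported regions the medians were 68 bp and 67 bp. Starts more than 1000 bp apart occurred in 7 members and ends in 10. Replicate 1 regions covered a median of 97.1% of the member and replicate 2 regions 99.1%. Replicate 1 placed its starts a median of 38 bp inside the combined start, replicate 2 6 bp inside, and the widths of the matched regions had medians of 2670 bp and 2760 bp. The replicate widths correlated across members (Spearman's rho 0.87). The 5 split members were X:5222148-5225218, divided by replicate 2, and 2R:6045072-6049082, 3R:7787428-7790032, 3L:539518-544020 and X:16251918-16256656, divided by replicate 1.

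Members had a larger median width than the remaining regions, and the limit of 5000 bp bounds both sets from above. The median was 2768 bp with quartiles of 2568 and 3366 bp, against 2151 bp (1867 and 2601) for the remaining regions. Of the members 375 measured 2400 to 3600 bp, and 59 (11.8%) exceeded 4000 bp, against 330 (5.52%) of the remaining regions. Within the supported members width and score were barely correlated, with a Spearman's rho of 0.03 for the combined score, 0.13 for replicate 1 and -0.01 for replicate 2. The rule cuts the scores of members to the range from 2.70 to 4.33 and their widths at 5000 bp, which limits any correlation among them, so no comparison with weaker regions is drawn. The 5 widest members were X:18430652-18435640 (4989 bp), X:2015108-2020050, 3L:19807620-19812558, 3L:5760698-5765618 and X:15750780-15755690 (4911 bp). Their combined scores were 2.71, 3.24, 2.82, 2.76 and 2.74. All 409 regions above the width limit were found in both replicates, and 59 of them reached the lowest score of the members. The highest of them scored 3.65 and would have ranked 37.

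When either replicate was used to choose the regions, the other gave nearly the same places. This reading is the one in which the list that was read took no part in the choice. The 500 highest-scoring narrow regions of replicate 1 overlapped a region of replicate 2 in 499 cases (99.8%, 95% interval 98.9 to 99.99), against 88.9% (87.9 to 89.7) of its other narrow regions. Their matched scores in replicate 2 had a median of 3.27, against 1.22 for its other narrow regions. Chosen in replicate 2 and read in replicate 1, 499 of 500 overlapped again, against 81.0% (79.9 to 82.1). The matched scores had a median of 2.76 against 0.90. The chosen regions were also wider, with medians of 2708 bp against 2172 bp in replicate 1 and 2742 bp against 2202 bp in replicate 2. The part of width in these contrasts was not tested. In both directions 386 of the 500 (77.2%, 95% interval 73.3 to 80.8) were also among the 500 of the other replicate, against 2.21% and 1.74% of the other narrow regions. Both counts take largely the same pairs, seen from each side, so they are not independent. In each direction 1 region was missing. For replicate 1 it was U:8309602-8310945, 1344 bp wide, with a score of 3.15 whose ratio in lowest terms was 4 to 1 by the constant of its own list. That ratio is not comparable with those of the combined list, whose constant differs. For replicate 2 the missing region was 2L:23002385-23004592, which underlies the exception on 2L described above.

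The members themselves met both of these lists often. Of the 500, 368 (73.6%) matched a region in the first 500 narrow regions of both replicates, against 5.85% of all narrow regions. Among the 486 supported members, another 48 did so for replicate 1 only, 66 for replicate 2 only and 4 for neither. The lowest ranks of a supported member were 1084 in the whole list of replicate 1 and 863 in that of replicate 2.

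Members lay on the main arms in broadly similar proportions to the weaker narrow regions. The 5 main arms held 488 members (97.6%) and 96.2% of the remaining regions. Arm 3R held the most, 124 members or 24.8% (95% interval 21.1 to 28.8), against 20.8% (19.8 to 21.9) of the remaining regions. X held 97 members, 19.4% (16.0 to 23.1), against 21.3% (20.3 to 22.4). The values were 18.4% against 16.6% on 2L, 18.0% against 19.8% on 3L and 17.0% against 17.5% on 2R. The intervals of members and remaining regions overlapped on each of the 5 arms, which is no test and does not show equal proportions. Taken as a share of the narrow regions of an arm, members made up 9.05% on 3R (95% interval 7.58 to 10.7), 8.46% on 2L, 7.50% on 2R, 7.06% on X and 7.05% on 3L, around 7.71% overall. When each replicate chose its own 500, 3R again had the highest share among the 5 arms in both, 10.3% and 10.8% (mean 10.5% ± 0.36, SD, n = 2). X had 9.61% in replicate 1 and 7.75% in replicate 2 (8.68% ± 1.3), so the place of X among the arms differed between the replicates.

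**Figure D4:**
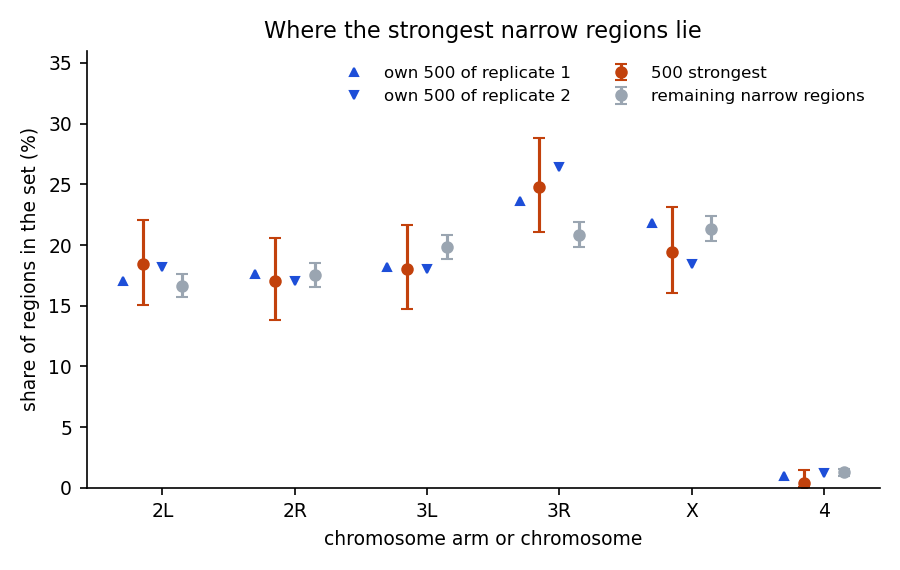
Points show the share of each set of regions (y axis, percent) that lies on each main arm and chromosome 4 (x axis), with exact 95% binomial intervals, for the 500 members (orange) and the 5982 remaining narrow regions (grey). Triangles give the share among the own 500 strongest narrow regions of each replicate; 3R is highest in every set but the remaining regions, where X is.

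Chromosome 4 and the sequence outside the arms contributed few members. Chromosome 4 held 2 members against 76 remaining narrow regions, 2.56% of its narrow regions with an interval of 0.312 to 8.96 that includes the 7.71% of the whole list. These were 4:807124-810690, with 3.57 in the combined list, 3.29 in replicate 1 and 3.79 in replicate 2, and 4:463394-468088, with 2.94, 2.77 and 3.12. Each replicate's own 500 held 5 and 6 regions of this chromosome, or 7.94% and 14.3% of its narrow regions (mean 11.1% ± 4.5, SD, n = 2). In replicate 2 that share was above those of all 5 main arms. In replicate 1 it was below them all, which ran from 8.62% on 3L to 10.3% on 3R. These shares rest on 5 and 6 regions and carry no interval, so no difference between the lists is drawn from them. Outside the arms and chromosome 4, 3 members were found in both replicates. They were XHet:83126-86066 with replicate scores of 2.92 and 3.36, U:4848434-4850744 with 2.96 and 3.05, and U:5540758-5542926 with 2.24 and 3.01. The scaffolds 2LHet, 3RHet and YHet and the collection Uextra held none.

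The arms can be compared in strength only above the lowest score of the set, which limits how far their medians can differ. Over supported members the median combined score was 3.04 on 2L, 3.05 on 2R, 3.06 on 3L, 3.04 on 3R and 2.93 on X. The arm medians ran from 2.72 on X to 2.89 on 3L in replicate 1 and from 3.21 on X to 3.33 on 3R in replicate 2, so X was the lowest in both. Of the first 100 members, 23 lay on X, 23 on 3R, 21 on 2R, 18 on 3L and 14 on 2L. The excess of replicate 2 over replicate 1 had medians of 0.46 on X, 0.47 on 3L, 0.52 on 2R and 0.54 on 2L and 3R.

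Members, like narrow regions in general, usually had another HP1c region within 5 kb. Another enriched region lay within 5 kb of 372 members (74.4%, 95% interval 70.3 to 78.2), against 67.9% over all narrow regions and 67.4% (66.2 to 68.6) of the remaining ones. For the 409 regions wider than 5000 bp the share was 78.0% (73.7 to 81.9). The median gap was 2283 bp for members and 2747 bp for the remaining regions. Wider regions leave shorter gaps, and the part of width in this difference was not tested. The nearest neighbour scored lower than the member in 469 of 500 cases, as the choice of the highest scores largely fixes. Its median score was 0.96, and the nearest neighbour of the remaining regions had 0.83. The neighbour was itself a member for 50 members (10.0%, 95% interval 7.51 to 13.0) and for 7.41% (6.75 to 8.10) of the remaining regions. A region wider than 5000 bp lay within 5 kb of 45 members (9.0%, 6.64 to 11.9) and of 6.70% (6.08 to 7.37) of the remaining regions. The intervals of members and remaining regions overlap in these last 2 comparisons and do not overlap for the neighbour within 5 kb. Within 2 kb, members (46.0%, 41.6 to 50.5) and remaining regions (41.8%, 40.5 to 43.0) had overlapping intervals, whereas within 10 kb they did not (88.0%, 84.8 to 90.7, against 83.4%, 82.5 to 84.4). Members had the higher share at each distance. The intervals cover counting error only and their overlap is no test, so no dependence on the distance is shown.

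**Figure D5:**
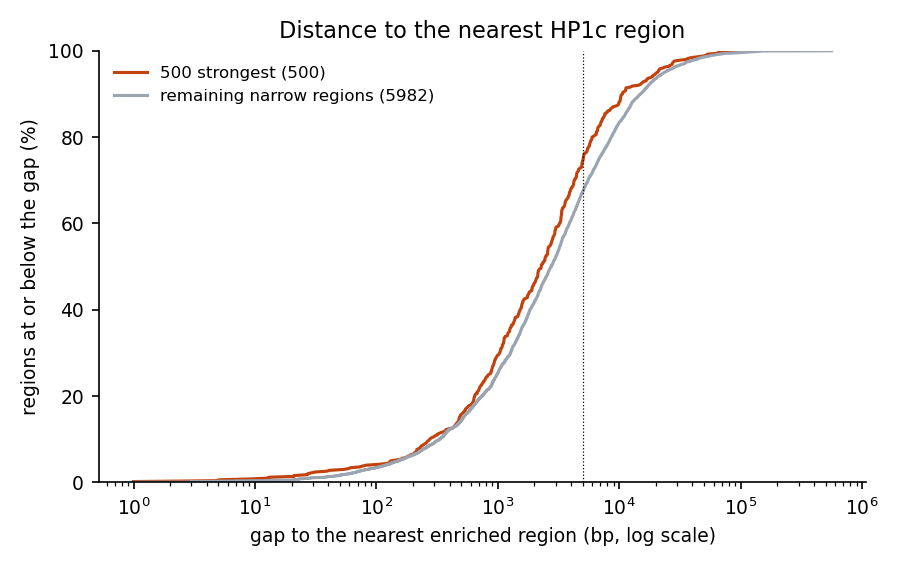
Curves give the cumulative share of regions (y axis, percent) by the gap to the nearest enriched region of any width (x axis, bp, log scale) for the 500 members and the 5982 remaining narrow regions. At the dotted line of 5000 bp the members stand at 74.4% and the remaining regions at 67.4%.

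Most members stood alone with respect to each other. The gap from a member to the nearest other member had a median of 52.4 kb and quartiles of 17.6 and 158 kb. With gaps of up to 10 kb joined, 408 members were single, 37 pairs formed and 6 groups held 3 members. All 6 groups were supported in both replicates throughout. The shortest, 3R:1472642-1487478, held 3 members within 14.8 kb and no other enriched region, and its replicate scores ran from 3.24 to 3.58 in replicate 1 and from 3.70 to 3.92 in replicate 2. The other 5 lay on 2L, at 2L:13372652-13388692, 2L:2971454-2989192, 2L:11994210-12013302, 2L:10412328-10432482 and 2L:6947720-6969622, each with 1 other enriched region among its members. In 4 of these that region scored between 0.64 and 1.65. In 2L:11994210-12013302 it was 2L:12001034-12008672, whose score of 3.25 exceeds the 2.89 of the lowest member of the group and which is 7639 bp wide, above the limit. The longest of the 6 groups is 2L:6947720-6969622. The closest pair, 2R:13149000-13151414 and 2R:13151620-13153988, lay 205 bp apart with combined scores of 3.32 and 2.88. Replicate 1 gave them 3.32 and 2.79, and replicate 2 gave 3.33 and 2.97.

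Along the arms members were found almost everywhere. Of 122 windows of 1 Mb, the shorter last ones included, 7 held no member, and the median was 4. The highest count was 10, on 3R between 19 and 20 Mb, followed by 9 on 3L between 21 and 22 Mb and on 3R between 1 and 2 Mb and between 24 and 25 Mb. The number of members per window correlated with the number of all narrow regions, which includes them (Spearman's rho 0.35, Pearson's r 0.39 over the 122 windows, which share their libraries). Counts of members this low limit how high such a correlation can be. The 3R window between 24 and 25 Mb held its 9 members among 33 narrow regions, whereas that between 19 and 20 Mb had 58.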

How the data were processed

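HP1c ChIP-seq and input libraries came from wild-type larvae of the third instar. The deposited files are lists of enriched regions with 1 score each, 1 list per ChIP replicate and 1 for the replicate set; the authors' score is used as deposited. Reads were aligned with Bowtie 0.12.7, per the submitters' processing notes, and the build is FlyBase release 5, per the file headers. The caller, its threshold and the way the replicates were joined are not stated there. The input libraries were not analysed here, and read depth is unknown. The 11 rows named as depleted were left out. Ties in score were broken by width, then position. Members were matched to the replicate region sharing most bases. Shares carry exact Clopper-Pearson 95% intervals over regions, for counting error only. The ratio behind a score was sought with denominators up to 5000. The constant of each list was chosen among its most frequent scores for the smallest median denominator. Members, lists and named regions were chosen with earlier results of these data known. Named were the 10 highest and 5 lowest members, the 5 next outside, exceptions (all 14, where the rule allowed 10), the 5 largest rank moves, the 5 narrowest and widest, and the tightest groups (all 6, where the rule gave 5); split members, the closest pair, supported members off the 5 arms and the regions missing between replicates were chosen after their values were seen. The overlap and ratio steps were tested on simulated data. Computations used Python 3.11, numpy 2.4.6, scipy 1.17.1 and pandas 2.3.3.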

Additional observations from a re-analysis of the deposited data

How the results depend on the processing

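Of 75 values under alternatives, 56 stayed within the 95% interval or, for scores and widths, 1 SD between the replicates (0.1 for rho), and 19 moved. The share of members found in both replicates ranged from 96.2% to 97.7% except on the main arms and chromosome 4 alone (98.6%) and among regions at least 1301 bp wide (99.6%), an alternative chosen after seeing the data. The share of remaining regions moved to 68.2% with 250 members, 64.1% with 1000, 59.5% with a limit of 3000 bp, 69.1% with no limit, 65.7% with a reciprocal overlap of 50%, 95.7% within the members' width quartiles and 72.9% at 1301 bp or more; it was 74.3% to 82.2% with either replicate left out, which asks for 1 overlap in place of 2. With 1000 members the matched median scores fell to 2.45 in replicate 1 and 2.94 in replicate 2, as weaker regions enter, and the share among the strongest of both replicates was 79.5%; it was 83.2% to 87.0% with either replicate left out. The limit of 3000 bp gave a median width of 2600 bp. A neighbour lay within 2 kb of 46.0% of members, against 42.1% of all narrow regions, and within 10 kb of 88.0% against 83.8%; the distance sets these levels. Where no construction is named, the cause was not tested. The share on X stayed between 17.0% and 21.8%. No paired analysis was possible because the input libraries, which share the replicate numbers, were not analysed here. Read numbers are unknown, so no limit from depth can be given.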
